A study of Homo sapiens with 9 samples.

Results

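The genes described here are 9 genes that build and load the classical and nonclassical major histocompatibility complex (MHC) class I molecules at the cell surface. They are the heavy chains HLA-B, HLA-C, HLA-E and HLA-F, the light chain B2M, the peptide transporter subunits TAP1 and TAP2, the loading chaperone TAPBP (tapasin) and the transactivator NLRC5. They were picked by name as parts of 1 pathway, 9 of the 58735 genes in the count table, and each symbol had 1 identifier. RNA was sequenced from MIA PaCa-2 cells, a human pancreatic cancer line whose genotype the labels give as WT. Cells received 0.1% DMSO, 1 µM SCH772984, an inhibitor of the kinases ERK1 and ERK2, or 1 µM compound 1, an inhibitor of the kinases TBK1 and IKKε, each for 24 h and with 3 libraries per group. All 9 libraries come from 1 cell line, and the labels do not say whether replicates were separate cultures, so p-values measure the spread between these libraries, which may be technical. In RNA from a whole culture, fewer cells that express a gene and less of its RNA per cell cannot be told apart.

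MHC class I molecules carry short peptides from inside the cell to its surface, where cytotoxic T cells inspect them. Peptides are cut by the proteasome, pumped into the endoplasmic reticulum by the TAP1-TAP2 heterodimer, trimmed there, and placed onto a heavy chain paired with B2M while tapasin bridges the chain and the transporter. NLRC5 is the class I counterpart of CIITA and works at the promoters through an enhanceosome of RFX, CREB/ATF and NF-Y factors. Interferons raise many of these genes through STAT and IRF factors, and tumor cells often carry low class I levels.

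The promoters of the genes are shown because the 2 transporter genes, described below, had unlike values with SCH772984. A RefSeq table (build GRCh38.p14) matched 7 of the 9 genes, all but HLA-E and NLRC5. Each line gives the 250 bases before the start, 5′ to 3′ on the gene's strand, in lower case. Capitals mark matches on either strand to GAAA followed after any 2 bases by GAAA (the interferon-stimulated response element, ISRE), an NF-kB site, TGACG (the CRE half-site) and CCAAT (the Y box). For HLA-B the capitals also mark the shorter IRF core AANNGAAA, which lies inside every ISRE match.
HLA-B (chr6:31357180-31357429, minus strand): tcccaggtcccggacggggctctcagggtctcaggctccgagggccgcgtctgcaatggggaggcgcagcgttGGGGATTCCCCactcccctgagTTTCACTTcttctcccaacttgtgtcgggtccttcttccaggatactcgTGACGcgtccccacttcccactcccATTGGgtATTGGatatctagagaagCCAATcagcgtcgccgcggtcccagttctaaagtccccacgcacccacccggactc
B2M (chr15:44711267-44711516, plus strand): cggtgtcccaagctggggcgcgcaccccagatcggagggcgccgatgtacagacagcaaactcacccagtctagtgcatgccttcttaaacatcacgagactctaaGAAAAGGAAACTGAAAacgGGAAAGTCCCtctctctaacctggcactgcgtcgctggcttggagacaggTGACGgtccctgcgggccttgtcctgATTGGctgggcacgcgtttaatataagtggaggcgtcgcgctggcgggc
TAP1 (chr6:32853705-32853954, minus strand): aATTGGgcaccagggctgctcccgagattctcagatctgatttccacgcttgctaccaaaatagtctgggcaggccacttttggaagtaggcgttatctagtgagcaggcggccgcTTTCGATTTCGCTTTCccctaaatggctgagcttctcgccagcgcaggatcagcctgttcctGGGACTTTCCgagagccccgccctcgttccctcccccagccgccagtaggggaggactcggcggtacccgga
TAP2 (chr6:32838740-32838989, minus strand): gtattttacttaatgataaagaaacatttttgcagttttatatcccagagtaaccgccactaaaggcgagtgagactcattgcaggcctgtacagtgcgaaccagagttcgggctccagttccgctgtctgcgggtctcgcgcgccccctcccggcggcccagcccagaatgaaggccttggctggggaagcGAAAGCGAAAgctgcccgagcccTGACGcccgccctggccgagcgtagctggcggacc
TAPBP (chr6:33314079-33314328, minus strand): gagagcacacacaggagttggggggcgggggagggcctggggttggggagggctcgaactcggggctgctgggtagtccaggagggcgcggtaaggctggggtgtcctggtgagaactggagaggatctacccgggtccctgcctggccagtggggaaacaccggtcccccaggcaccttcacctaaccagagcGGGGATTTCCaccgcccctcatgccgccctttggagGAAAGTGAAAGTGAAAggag

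ISRE letters occurred in 5 of the 7 genes (B2M, TAP1, TAP2, TAPBP and HLA-F) and in 3.02% of all 35116 promoters of this length. HLA-B and HLA-C held the shorter core, which 20.3% of promoters hold. NF-kB letters occurred in 5 of 7 (HLA-B, HLA-C, B2M, TAP1 and TAPBP), against 9.96% of promoters, and neither the TAP2 nor the HLA-F window held them. TGACG occurred in 4 of 7 (HLA-B, HLA-C, B2M and TAP2), against 21.2% of promoters, and CCAAT in 5 of 7 (HLA-B, HLA-C, HLA-F, B2M and TAP1), against 32.0%. The windows of HLA-B and HLA-C were 89.0% identical, and HLA-F was 80.4% identical to HLA-B. For TAP1 the table also lists a start further into the gene, and its window (chr6:32852762-32853011) held none of these letters. These matches describe letters only, and no binding was measured.

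Library totals were 9464432 to 10286223 counts with DMSO, 9652741 to 9840769 with compound 1 and 11056977 to 13887859 with SCH772984. Compound 1 replicate 1 stood apart from its group, with a chi-square per degree of freedom of 11.1 and 8.29 against the other replicates, which differed from each other by 2.78. With SCH772984, all 9 tested genes of a list of MAPK output genes were lower, against 35.5% of all genes, among them SPRY4, a feedback inhibitor of the pathway, at 231 CPM (counts scaled to library size) with DMSO and 2.00 with SCH772984. For 5 of the 9 only the DMSO libraries reached the count minimum, so that a test could find them lower only. None of the 9 passed the test with compound 1, where 0.49% of all genes were higher and 0.374% lower. As a check of the labelled cell type, the 6 epithelial markers summed to 3464 to 3729 CPM with DMSO, 2967 to 3737 with compound 1 and 1128 to 1276 with SCH772984. Of these, 3 could be tested, and the keratins KRT8 (2488 CPM with DMSO and 771 with SCH772984) and KRT18 (879 and 167) fell with SCH772984. EPCAM was at 0 counts in all 9 libraries and CDH1 at 0 with DMSO, and VIM, a mesenchymal filament, stood at 2473 CPM with DMSO and 2111 with SCH772984. The 6 immune markers, looked at because immune cells carry much class I RNA, summed to 3.17 to 4.37 CPM with DMSO, 2.18 to 3.44 with compound 1 and 0.842 to 1.67 with SCH772984, and PTPRC, CD3E and NCAM1 were at 0 counts in every library. The 4 fibroblast markers summed to 457 to 506 CPM with DMSO, 468 to 531 with compound 1 and 985 to 1114 with SCH772984, where both that could be tested, COL1A2 and COL1A1 (the latter past the filter through these libraries only), rose, while DCN and LUM had 0 to 1 counts. The 2 endothelial markers summed to 2.87 to 4.41, 6.23 to 6.77 and 0 to 0.268 CPM in the same order, with CDH5, past the filter through DMSO only, lower with SCH772984. KRT19 did not pass with SCH772984. The markers called with SCH772984 moved in the same libraries as the class I genes, and their part in those changes was not tested.

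With SCH772984, 7 of the 8 genes with any counts rose against DMSO (edgeR quasi-likelihood test, adjusted p below 0.05), where 37.2% of all 13834 genes tested were higher and 35.5% lower. The median log2 fold change of the 8 genes was 1.55, against 0.03 over all genes tested. All 8 reached the count minimum in every DMSO library as well as with SCH772984. For 6 of the 8 the rise was at least 2-fold, a size that 18.2% of all genes reached. With compound 1, 1 of the 8 rose, B2M, against 0.49% higher and 0.374% lower of the 12849 genes tested. That background, 63 genes higher and 48 lower, depended on single libraries. It was 453 and 798 without compound 1 replicate 1, and it lay between 5 and 27 higher and between 3 and 24 lower when any one of the other 5 libraries was left out. With no library left out, the median log2 fold change of the 8 genes with compound 1 was 0.29, against 0.00 over all genes. At an unadjusted p below 0.05, 4 of the 8 were higher with compound 1, against 7.35% of all genes, and 0 were lower, against 7.69%. Both comparisons share the 3 DMSO libraries.

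**Figure D1:**
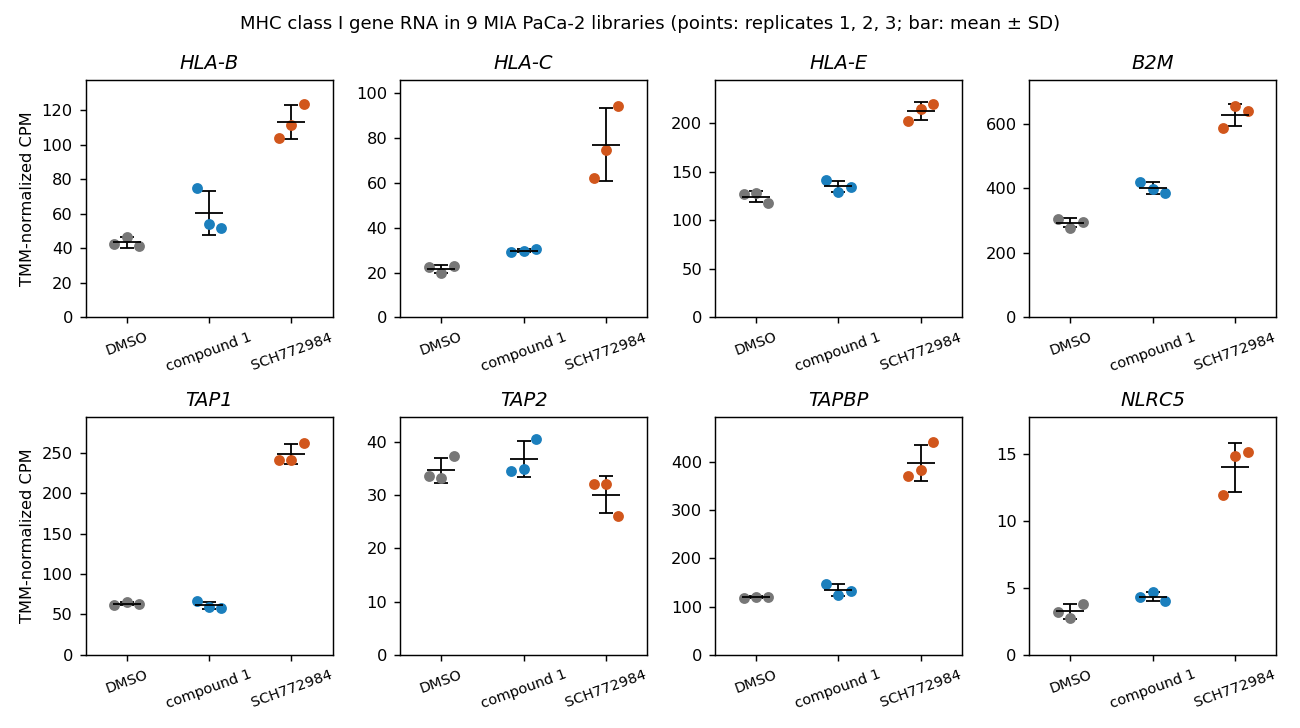
TMM-normalized CPM (vertical axes, from 0) of the 8 genes with counts in each of the 9 libraries, grouped by treatment, with points for replicates 1 to 3 and bars for the mean and SD. The 3 SCH772984 libraries lie above all DMSO and compound 1 libraries in every panel but TAP2, where they lie below them on this scale.

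The classical heavy chains HLA-B and HLA-C present peptides to CD8 T cells. Levels are given as CPM after TMM normalization, in the order of replicates 1, 2 and 3. HLA-B (chr6:31269491-31357188, minus strand) had 42.3, 46.8 and 41.2 CPM with DMSO. It had 103.8, 111.6 and 123.2 CPM with SCH772984, all above the DMSO libraries. This was a log2 fold change of 1.38 (SE 0.08, adjusted p = 5.85e-20), or 2.60-fold. Under compound 1 the values were 75.0, 54.0 and 52.0 CPM. All 3 lay above DMSO, and replicate 1 lay far above the other 2. Its change with compound 1 was 0.48 on the log2 scale (SE 0.12, adjusted p = 0.0754), so HLA-B did not pass. Without compound 1 replicate 1 the difference was smaller, 0.29, but passed (adjusted p = 0.0214), in a fit where the calls over all genes went from 63 higher and 48 lower to 453 and 798. HLA-B also passed with no filter (adjusted p = 0.00105), all 9 libraries in one fit (0.0428), the replicate block (0.0111) and DESeq2 (0.0277).

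HLA-C (chr6:31268749-31272130, minus strand) had 22.5, 19.6 and 22.8 CPM with DMSO. With SCH772984 it had 62.0, 74.7 and 94.3 CPM, the widest spread among the heavy chains in that group, yet all above DMSO. HLA-C rose by 1.83 on the log2 scale (SE 0.14, adjusted p = 4.76e-08), or 3.56-fold. Compound 1 gave 29.3, 29.5 and 30.5 CPM, close together and all above DMSO. Its log2 fold change there was 0.46 (SE 0.11, adjusted p = 0.0554), which missed the threshold, and without compound 1 replicate 1 it was 0.47 (adjusted p = 0.00425), in the fit with many more calls over all genes. HLA-C also passed with library sizes alone (adjusted p = 0.0477), upper-quartile factors (0.0489), no filter (0.0192), the replicate block (0.0186) and DESeq2 (0.0396). The annotated HLA-B and HLA-C genes overlap on the same strand, and 1.15% of HLA-B exon bases and 1.40% of HLA-C exon bases lie in exons of the other. A further 17.8% of HLA-B exon bases face an antisense gene, AL671883.2, which had 0 counts in all libraries. How reads that match several HLA genes were treated is not given in the sources used here, so the split of reads between these paralogs is uncertain.

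HLA-E is a nonclassical heavy chain that presents leader peptides of other class I chains to NKG2A receptors of natural killer cells. It lies on chr6:30489467-30494205, plus strand, and shares no exon base with another gene. It had 127.6, 128.1 and 117.6 CPM with DMSO and 202.5, 215.3 and 219.9 CPM with SCH772984, with no overlap. The log2 fold change of 0.77 (SE 0.07, adjusted p = 2.45e-14), or 1.70-fold, was the smallest among the 7 genes that rose. Compound 1 gave 141.2, 129.1 and 134.6 CPM, all above DMSO by a small margin, and the log2 fold change of 0.12 (95% confidence interval -0.03 to 0.27, adjusted p = 0.473) did not pass.

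HLA-F, the other nonclassical chain (chr6:29722775-29738528, plus strand), had 0 counts in all 9 libraries. A count of 0 allows up to 3 counts, which is 0.201 to 0.331 CPM on the TMM scale depending on the library and covers counting error only. It was therefore in no test. Genes on the opposite strand cover 28.5% of its exon bases, and the strand setting of the counting is not given in the sources used here.

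B2M encodes β2-microglobulin, the light chain that pairs with class I heavy chains (chr15:44711487-44718877, plus strand). It had 305.6, 278.1 and 295.6 CPM with DMSO and 587.5, 653.9 and 640.9 CPM with SCH772984. All libraries with SCH772984 were above DMSO, with a log2 fold change of 1.09 (SE 0.06, adjusted p = 2.10e-20), or 2.13-fold. With compound 1 it had 419.4, 398.9 and 384.8 CPM, between the other groups and overlapping neither. B2M was the 1 gene of the 9 to pass with compound 1, at a log2 fold change of 0.46 (SE 0.06, adjusted p = 0.00477), or 1.37-fold. The call was lost without DMSO replicate 2 (0.42, adjusted p = 0.107) or DMSO replicate 3 (0.46, adjusted p = 0.0561).

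TAP1 and TAP2 form the transporter as a heterodimer, and with SCH772984 TAP1 rose while TAP2 did not pass the test. TAP1 (chr6:32845209-32853978, minus strand) had 61.5, 65.6 and 63.0 CPM with DMSO. With SCH772984 it had 240.9, 241.4 and 262.1 CPM, far above every other library. TAP1 rose by 1.97 on the log2 scale (SE 0.07, adjusted p = 6.50e-28), or 3.91-fold. With compound 1 it had 66.6, 59.2 and 58.3 CPM, overlapping DMSO, with a log2 fold change of -0.04 (95% confidence interval -0.22 to 0.14, adjusted p = 0.857). The antisense gene PSMB8-AS1 faces 9.49% of TAP1 exon bases and had 0 to 11 counts per library.

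TAP2 (chr6:32821833-32838780, minus strand) had 33.6, 33.2 and 37.4 CPM with DMSO. With SCH772984 it had 32.2, 32.1 and 26.1 CPM, all below DMSO, the first 2 only slightly. The log2 fold change of -0.21 (SE 0.10, 95% confidence interval -0.41 to -0.01) did not pass (adjusted p = 0.0511, unadjusted p = 0.0373). The value rests on SCH772984 replicate 3, without which it was -0.12 (adjusted p = 0.273), and with library sizes as the only scaling it was -0.04 (adjusted p = 0.733). It passed without DMSO replicate 1 or 2 or without SCH772984 replicate 1 or 2 (adjusted p = 0.0456, 0.0398, 0.0211 and 0.0365), and with RLE factors (0.0462), no filter (0.0363) or the replicate block (0.0422). With compound 1 it had 34.6, 35.0 and 40.7 CPM, overlapping DMSO, and the log2 fold change was 0.09 (95% confidence interval -0.13 to 0.31, adjusted p = 0.745). A readthrough gene, AL669918.1, shares 32.3% of TAP2 exon bases on the same strand and had 0 counts in every library.

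The ratio of TAP1 to TAP2 counts within a library does not depend on scaling. It was chosen, like the other ratios here, after the values were seen. It was 1.83 ± 0.146 with DMSO, 1.68 ± 0.246 with compound 1 and 8.35 ± 1.46 with SCH772984 (SD, n = 3 each). With SCH772984 the 3 libraries gave 7.49, 7.53 and 10.0, none near the DMSO values of 1.83, 1.98 and 1.68. Exact two-sided permutation tests gave p = 0.1 for SCH772984 and p = 0.5 for compound 1 against DMSO, and 0.1 is the smallest p that 3 against 3 libraries allow. As the sequences above show, the TAP1 and TAP2 windows both hold ISRE letters and TAP1 also holds NF-kB letters, while TAP2 holds the CRE half-site. Whether these letters play a part in the response was not tested.

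**Figure D2:**
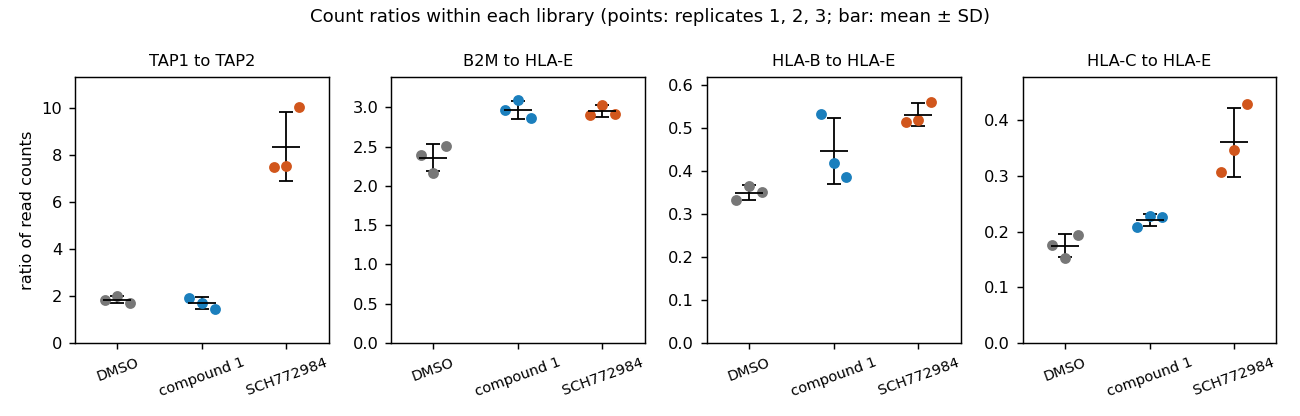
Ratio of read counts of 2 genes within each library (vertical axes, from 0) for TAP1 to TAP2, B2M to HLA-E, HLA-B to HLA-E and HLA-C to HLA-E, with points for replicates 1 to 3 and bars for the mean and SD. The TAP1 to TAP2 ratio is 7.49 to 10.0 with SCH772984 and below 2 in the other libraries, and the B2M to HLA-E ratio is higher than DMSO with both inhibitors.

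Ratios to HLA-E give how the other chains changed relative to it. B2M to HLA-E was 2.36 ± 0.175 with DMSO, 2.97 ± 0.115 with compound 1 and 2.95 ± 0.0748 with SCH772984 (SD, n = 3 each). Both inhibitors gave ratios above every DMSO library (exact two-sided permutation test, p = 0.1 for each, the smallest possible). HLA-B to HLA-E was 0.349 ± 0.0168 with DMSO, 0.445 ± 0.0762 with compound 1 and 0.531 ± 0.0259 with SCH772984. HLA-C to HLA-E was 0.175 ± 0.0206, 0.221 ± 0.0115 and 0.361 ± 0.0623 in the same order. In both of these ratios, too, neither inhibitor's libraries overlapped DMSO. HLA-B to HLA-C was 2.02 ± 0.315 with DMSO and 2.03 ± 0.460 with compound 1 (exact p = 1.0), and 1.49 ± 0.184 with SCH772984 (exact p = 0.1).

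TAPBP encodes tapasin, which holds empty class I molecules at the transporter until a fitting peptide binds (chr6:33299694-33314387, minus strand). It had 117.8, 120.8 and 120.2 CPM with DMSO, a narrow range, and 371.1, 382.6 and 440.0 CPM with SCH772984. The rise of 1.73 on the log2 scale (SE 0.07, adjusted p = 2.41e-26), or 3.32-fold, was close in size to that of TAP1. Its levels with compound 1 were 147.2, 123.7 and 131.2 CPM, all above DMSO, and replicate 1 was the highest. The difference of 0.17 on the log2 scale passed at an unadjusted p of 0.0455 and not after adjustment (adjusted p = 0.319).

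NLRC5, the transactivator, was the least abundant of the genes with counts (chr16:56989485-57083531, plus strand). It had 3.17, 2.76 and 3.83 CPM with DMSO and 11.9, 14.9 and 15.2 CPM with SCH772984. Its log2 fold change of 2.11 (SE 0.20, adjusted p = 1.26e-13), or 4.31-fold, was the largest point estimate of the 8, with a 95% confidence interval (1.70 to 2.51) that holds the estimate for TAP1. Its levels with compound 1 were 4.30, 4.69 and 4.05 CPM, all above DMSO. The difference of 0.42 on the log2 scale had a 95% confidence interval of -0.08 to 0.92 and did not pass (adjusted p = 0.419).

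**Figure D3:**
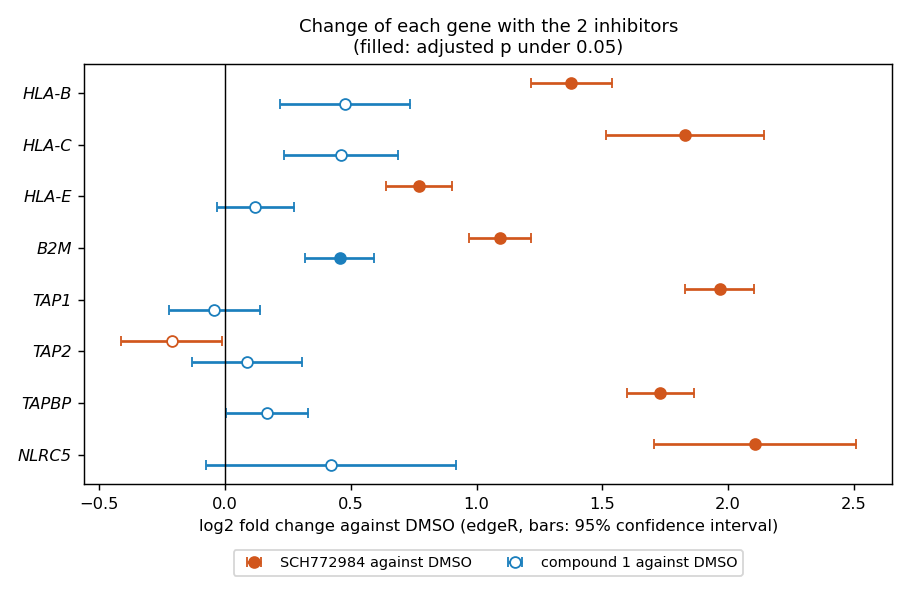
Log2 fold change against DMSO (horizontal axis) of each of the 8 tested genes with SCH772984 and with compound 1, with 95% confidence intervals as bars and filled points where the adjusted p is below 0.05. Filled points for SCH772984 run from 0.77 for HLA-E to 2.11 for NLRC5, TAP2 lies below 0, and B2M is the one filled point for compound 1.

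Library overlap was read on the TMM scale. The 3 SCH772984 libraries were all above DMSO for 7 of the 8 genes, against 38% of all genes. For TAP2 they were all below, against 36.4%. The TAP2 difference depends on scaling, since with library sizes alone its edgeR log2 fold change was -0.04 (adjusted p = 0.733). The 3 compound 1 libraries were all above DMSO for 6 of the 8 genes (10.3% of all genes) and all below for 0 (10.6%). TAP1 and TAP2 were the 2 genes whose compound 1 libraries overlapped DMSO.

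Compared directly, at the same dose and time, 7 of the 8 genes were higher with SCH772984 than with compound 1, against 33.7% of 13863 genes, and TAP2 was lower, against 32.6%. The median log2 difference was 1.14, against 0.03 over all genes. TAP1 differed most, by 2.02 (SE 0.09, adjusted p = 1.09e-13), and NLRC5 by 1.69 (SE 0.18, adjusted p = 5.41e-08). TAPBP differed by 1.57 and HLA-C by 1.37 (adjusted p = 5.03e-12 and 6.73e-09). The smaller differences were 0.91 for HLA-B, 0.66 for HLA-E and 0.65 for B2M, with adjusted p between 3.91e-07 and 9.22e-07. TAP2 differed by -0.29 (SE 0.12, adjusted p = 0.0356), a call that was lost under 7 of 16 alternatives. These were the fits without SCH772984 replicate 3 (adjusted p = 0.191), without compound 1 replicate 3 (0.140), with library sizes alone (0.256), with upper-quartile factors (0.235), with at least 10 counts in every library (0.110), with the replicate block (0.0544) and thinned to the lowest total (0.0632).

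Levels of different genes were compared per kilobase of the deposited gene length. That length counts every annotated exon base of a gene, 6079 for B2M and 2975 for HLA-E. Which transcripts the cells used was not measured. The order of the genes therefore depends on these lengths and may not be that of their transcripts. With DMSO, B2M was highest at 48.2 CPM per kb, followed by HLA-E at 41.8, TAPBP at 23.7, HLA-B at 14.2, TAP1 at 13.2, HLA-C at 8.64, TAP2 at 5.43 and NLRC5 at 0.263. HLA-B and TAP1 overlapped across libraries, and every other pair of neighbours was separate. With SCH772984 the order was B2M at 103, TAPBP at 78.7, HLA-E at 71.5, TAP1 at 51.6, HLA-B at 37.0, HLA-C at 30.7, TAP2 at 4.71 and NLRC5 at 1.13. The ranges of TAPBP and HLA-E and those of HLA-B and HLA-C overlapped. With compound 1 the order was that of DMSO, with overlap between TAPBP (26.5) and HLA-B (19.8) and between TAP1 (12.8) and HLA-C (11.9). In every group the counted level of HLA-E was above those of HLA-B and HLA-C, whose split of shared reads is uncertain.

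Among 9949 protein-coding genes with a mean of at least 5 CPM, the gene most like each member in log2 CPM over the 9 libraries was PLBD1 for HLA-B, RECQL5 for HLA-C, BAIAP3 for HLA-E, ACAD10 for B2M, MRC2 for TAP1, UAP1L1 for TAPBP and RGL3 for NLRC5. Pearson's r ran from 0.992 for HLA-B to 1.00 for TAPBP. These 9 points form groups by treatment and share their libraries, and between 918 and 1830 genes had an r above 0.9 with each of these members. For TAP2 the most similar gene was METTL8 (r = 0.955), and 10 genes passed 0.9. Within the set, TAP1 and TAPBP were most alike (r = 0.993). On this TMM scale TAP2 ran against the other 7 genes (r = -0.59 to -0.75).

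The wider pathway was read from 8 lists of 104 genes in all, of which 75 could be tested with SCH772984. Of these, 41 rose and 15 fell with SCH772984, against 37.2% and 35.5% of all genes, the background for each list below. For 7 of the 75 only the SCH772984 libraries reached the count minimum, so that their direction was set by the filter, and 6 of these are among the 41. With compound 1, 1 of the 69 tested rose and 0 fell, and at an unadjusted p below 0.05 11 were higher and 2 lower. Over all genes the shares with compound 1 were 0.49% and 0.374% after adjustment and 7.35% and 7.69% before it, the background for compound 1 in each list below. In the direct comparison 39 of 75 were higher and 17 lower with SCH772984, against 33.7% and 32.6% of all genes, and 6 of the 39 passed the filter only through the SCH772984 libraries. Apart from the most changed genes of each list, genes named in the next paragraphs were chosen after their values were seen.

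**Figure D4:**
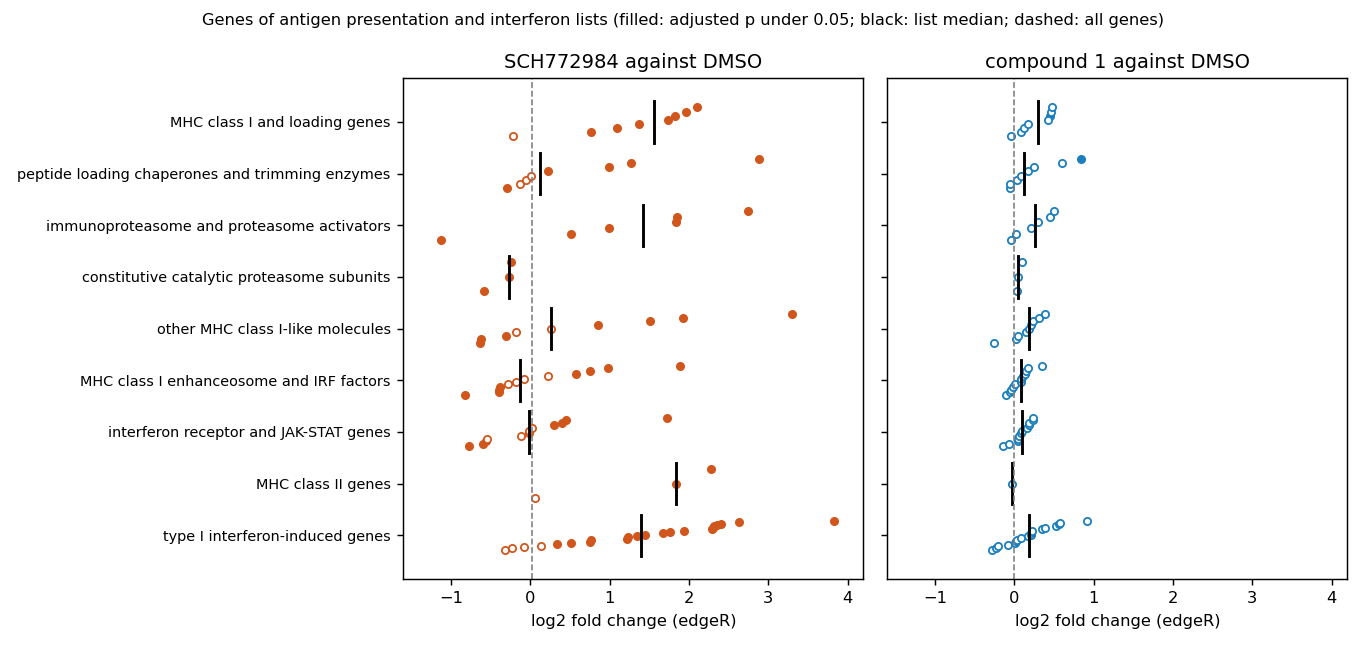
Log2 fold change against DMSO (horizontal axes) of every tested gene of the 9 genes and of the 8 lists (rows), with SCH772984 on the left and compound 1 on the right. Filled points have an adjusted p below 0.05, black bars are list medians and the dashed line is the median of all genes, and the immunoproteasome row has a median of 1.42 with SCH772984 and 0.26 with compound 1.

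Of the 8 loading chaperones and trimming enzymes, 4 rose and 1 fell with SCH772984 (median log2 fold change 0.12). ERAP2, an aminopeptidase that trims peptides in the endoplasmic reticulum, had 8.70, 7.39 and 7.65 CPM with DMSO and 54.7, 66.7 and 55.5 CPM with SCH772984, a rise of 2.89 (SE 0.12, adjusted p = 6.85e-26). ERAP1, its paralog, rose by 0.99 and TAPBPL, a tapasin-related peptide editor, by 1.27 (adjusted p = 5.54e-13 and 5.33e-09). The general chaperone HSPA5 fell by 0.29 on the log2 scale (adjusted p = 7.66e-05), a call lost with library sizes alone (adjusted p = 0.0801). With compound 1, ERAP2 had 14.1, 12.8 and 15.8 CPM, all above DMSO, and rose by 0.85 (SE 0.15, adjusted p = 0.0246), the 1 gene of the 69 tested to pass. Its call was lost without DMSO replicate 1, 2 or 3 or compound 1 replicate 3 (adjusted p = 0.0998, 0.224, 0.102 and 0.0880).

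Of the 6 immunoproteasome subunits and proteasome activators, 5 rose and 1 fell with SCH772984. PSMB9, an inducible catalytic subunit encoded beside TAP1, had 4.30, 3.64 and 1.42 CPM with DMSO and 22.8, 18.6 and 22.0 CPM with SCH772984, a rise of 2.75 (SE 0.22, adjusted p = 6.20e-14). The other inducible subunits, PSMB8 and PSMB10, rose by 1.84 and 1.85 from 1.64 and 2.03 CPM (adjusted p = 4.51e-08 and 2.90e-09). Opposite-strand genes face 20.6% of PSMB8 exon bases, and a same-strand gene shares 34.8% of those of PSMB10. The activator subunits PSME1 and PSME2 rose by 1.00 and 0.52, whereas PSME3, which forms a separate nuclear activator, fell by 1.12 (SE 0.06, adjusted p = 1.47e-20). All 3 constitutive catalytic subunits fell. PSMB7 fell by 0.58 (adjusted p = 3.49e-11), while PSMB5 fell by 0.27 and PSMB6 by 0.24, both calls lost with library sizes alone (adjusted p = 0.152 and 0.401). None of these 9 genes passed with compound 1, and PSME1 and PSME2 had an unadjusted p of 0.0154 and 0.00445.

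Of 15 further class I-like molecules, 9 could be tested. With SCH772984 4 rose and 3 fell, shares near the 37.2% and 35.5% over all genes. MR1, which presents microbial vitamin metabolites, had 9.52, 10.7 and 11.9 CPM with DMSO and 110.3, 105.2 and 101.0 CPM with SCH772984, a rise of 3.30 (SE 0.11, adjusted p = 1.19e-30). FCGRT, the neonatal Fc receptor, and HFE, an iron regulator, rose by 1.92 and 1.51 (adjusted p = 7.47e-18 and 8.74e-21), and both proteins pair with B2M as MR1 does. The stress ligands of the NKG2D receptor did not move one way, since ULBP1 rose by 0.86 while MICB fell by 0.63, ULBP3 by 0.62 and MICA by 0.31. ULBP2, at 8.40 CPM with DMSO and 10.1 with SCH772984, was not called. The calls of MICB and MICA were lost with library sizes alone (adjusted p = 0.0533 and 0.255), that of MICB without SCH772984 replicate 3 (0.0597) and that of MICA without DMSO replicate 1 (0.0611).

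Of 13 enhanceosome and IRF factors, 12 were tested, and 4 rose and 4 fell with SCH772984 (median -0.12), shares no larger than those over all genes. IRF1, an interferon-induced factor that binds ISRE sequences, had 8.29, 8.60 and 7.10 CPM with DMSO and 30.9, 27.0 and 30.9 CPM with SCH772984, a rise of 1.89 (SE 0.14, adjusted p = 4.06e-17). Opposite-strand genes face 22.0% of IRF1 exon bases. The RFX subunits RFX5 and RFXANK rose by 0.75 and 0.58, and ATF1, a CREB relative, fell by 0.82 (adjusted p = 6.82e-08). NFYA, NFYB and IRF3 fell by 0.38, 0.40 and 0.39, of which the NFYB call was lost with library sizes alone (adjusted p = 0.0583). Exon bases facing opposite-strand genes made up 23.3% of RFXANK, 19.3% of IRF3 and 9.83% of RFX5. None of the 12 passed with compound 1, where IRF1 had 11.4, 6.98 and 8.61 CPM.

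Of 12 interferon receptor and JAK-STAT genes, 4 rose and 3 fell with SCH772984, shares no larger than the 37.2% and 35.5% over all genes. STAT2, part of the factor that type I interferon activates, rose by 1.73 (SE 0.11, adjusted p = 2.01e-18), and the phosphatase PTPN2 fell by 0.77 (adjusted p = 1.63e-09). Of 22 tested type I interferon-induced genes 18 rose with SCH772984 and 0 fell. For 5 of the 22 (BST2, HERC6, IFIH1, MX1 and OASL) only the SCH772984 libraries reached the count minimum, and 4 of these are among the 18. With compound 1, 0 of 18 tested passed (edgeR, 3 higher and 2 lower at an unadjusted p below 0.05), where 0.49% and 0.374% of all genes passed and 7.35% and 7.69% did so unadjusted. BST2, a tethering factor for enveloped viruses and 1 of these 5, had 1 to 6 counts per library with DMSO and 43 to 90 with SCH772984, with no overlap.

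Of 13 MHC class II genes, 3 could be tested with SCH772984, and both subunits of the class II peptide editor, HLA-DMA and HLA-DMB, were called higher. Both reached the count minimum with SCH772984 only, so that a test could find them higher only. HLA-DMB had 3 to 6 counts per library with DMSO and 23 to 35 with SCH772984. CIITA, the class II counterpart of NLRC5, had 1.90 CPM with DMSO and 1.97 CPM with SCH772984, a log2 difference of 0.06 (95% confidence interval -0.61 to 0.72, adjusted p = 0.888).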

How the data were processed

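Libraries were made from MIA PaCa-2 RNA, 3 for each of 3 treatments. The authors deposited 1 table of whole-number read counts per gene for the 9 libraries, with gene lengths. The submitters' processing notes name HISAT2 2.0.5, featureCounts 1.5.0-p3 and hg38. All 58735 genes matched GENCODE release 29 by identifier and position. Strand and multi-mapping settings are not given in the sources used here.

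Groups were taken from the labels. Each comparison was fitted on its 6 libraries in edgeR 4.0.16 (R 4.3.3) with filterByExpr (minimum count 10, minimum total 15), TMM factors, robust dispersions and the quasi-likelihood F-test. P-values were adjusted by Benjamini-Hochberg over all genes tested, and a gene was called at an adjusted p below 0.05. Levels are CPM with 1 set of TMM factors over the 9 libraries. Ratios of counts were compared by exact two-sided permutation tests over libraries. The pathway genes named by rule were those called with compound 1, the largest rise and the largest fall of each list with SCH772984, and called genes at 3 counts or fewer throughout a group.

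Alternatives were library sizes alone, RLE and upper-quartile factors, other filters, a fit of all 9 libraries, a replicate block, DESeq2 1.42.0, thinning to 9464432 counts and leaving out each library. The members and lists were chosen with earlier results of these data known.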

Additional observations from a re-analysis of the deposited data

How the results depend on the processing

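The SCH772984 rises of the 7 genes kept their direction and side of the threshold under all 16 alternatives, while TAP2 passed under 7 of 16. With library sizes alone or upper-quartile factors, the all-gene median of the SCH772984 comparison moved by 0.17 and calls split into 6242 higher and 3911 lower with library sizes alone, against 5150 and 4916 with TMM. The calls of HSPA5, PSMB5, PSMB6, MICA, MICB and NFYB were lost under both scalings. CIITA turned negative without DMSO replicate 1 (-0.065) or SCH772984 replicate 3 (-0.021), within a range of -0.065 to 0.15 over the fits without 1 library and of -0.065 to 0.23 over all 16 alternatives, and the cause was not tested.

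The count of members called with compound 1 was 1 and moved to 2 with library sizes alone, upper-quartile factors or all 9 libraries in one fit, to 3 with no filter, DESeq2 or the replicate block, to 4 at an unadjusted p and to 0 with a 2-fold minimum. Leaving out 1 library gave 0 to 3, with 0 without DMSO replicate 2 or 3 and 3 without compound 1 replicate 1. Calls over all genes moved too, from 63 higher and 48 lower. They were 85 and 25 with library sizes alone and 80 and 25 with upper-quartile factors. Other settings gave 189 and 228 with no filter, 117 and 119 with DESeq2, and 193 and 219 with the replicate block. All 9 libraries in one fit gave 91 and 97. Without compound 1 replicate 1 the calls were 453 and 798. Dropping the second or the third DMSO library gave 5 and 3 or 12 and 5. For the other pathway genes with compound 1 the count of 1 moved to 2 with no filter, all 9 libraries or the replicate block, to 13 at an unadjusted p and to 0 with a 2-fold minimum, and to between 0 and 1 without 1 library. With a 2-fold minimum the other pathway genes fell from 56 to 27 with SCH772984, and from 56 to 27 in the direct comparison, where members fell from 8 to 4.

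Deviations of same-numbered replicates had no steady direction (r = -0.14 to 0.24 by pair of libraries), so the replicate numbers were not taken as pairs. With the replicate block 8 members were called with SCH772984 and 7 in the direct comparison. Low depth limits NLRC5, PSMB8, PSMB10 and the class II genes, and HLA-F was not detectable.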
